A study of Homo sapiens with 12 samples.

Results

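Transcripts of 9 genes of the integrated stress response were followed in RNA carried through a protein purification: ATF4, DDIT3, XBP1, PPP1R15A, TRIB3, ASNS, CHAC1, DDIT4 and SESN2. They were taken by gene symbol, all 9 were found among 25369 genes in the deposited tables, and all 9 passed the filter on low values (10 normalized counts in 3 libraries), as did 14627 genes in all. The cells were HEK293T, an embryonic kidney derived line that the growth protocol names HEK293, and the plasmid they were transfected with encoded either the bare Halo tag (Control) or a Halo fusion of TNIP2 residues 196 to 346, TNIP2 being an adaptor protein known from NF-kB signalling. Total RNA of the extract (Input, from 100 µl) and of material purified through the tag (Pulldown, from 90 µl) gave 4 groups of 3 libraries: Control Input, Control Pulldown, TNIP2 Input and TNIP2 Pulldown. All groups therefore carry a transfected plasmid and the Halo tag, and the TNIP2 groups hold a fragment in place of the whole protein, expressed beside the cells' own TNIP2. The plasmid's promoter is not given in the sources used here, and they do not say whether libraries of a group are separate transfections, so the spread behind each p-value may be technical.

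The integrated stress response begins when kinases that sense misfolded protein, double-stranded RNA, scarce amino acids or scarce haem phosphorylate the initiation factor eIF2. Most translation then falls, while a few mRNAs with upstream reading frames, above all ATF4, are translated better, and the ATF4 protein switches on genes for amino acid supply, redox balance, further transcription factors such as CHOP, and the phosphatase subunit that ends the response. XBP1 belongs to a neighbouring arm, the unfolded protein response of the endoplasmic reticulum, in which the sensor IRE1 removes an intron from its mRNA outside the nucleus.

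Values are normalized counts, library-scaled read counts as deposited, and they measure relative abundance, not an amount of RNA. They sum to 10182326 to 11068819 per library in 9 libraries and to 12639745 to 15074851 in TNIP2 Pulldown, so the same value is a smaller share of the total in that group. In such bulk libraries, fewer molecules per cell and fewer cells holding them cannot be told apart. Recovered depth per library ran from 13795891 to 20795748 reads for Control Input, 3591342 to 6405292 for Control Pulldown, 8899518 to 16762460 for TNIP2 Input and 10314772 to 29535965 for TNIP2 Pulldown. The smallest number of recovered reads behind a member's value was 27, for CHAC1 in Control Pulldown 1, and was 102 or more for the other members. TNIP2, the check of the labels, had 272 to 304 normalized counts in Control Input and 309 to 1472 in Control Pulldown, against 13318 to 46568 in the extracts and 51905 to 193013 in the purified material of the TNIP2 fragment. All 7 markers of the HEK293T line reached a normalized count of 10, although PAX2 did so narrowly (2 to 22), and VIM ran from 3384 to 7416. Of the blood markers, CD3E and HBB were at 0 in all 12 libraries, PTPRC reached 1, and CD14 ran from 2 to 82. Summed markers of blood, of endothelium and fibroblasts, and of liver reached at most 82, 141 and 42. The summed level of the 7 HEK293T markers was 5241 to 6416 in 9 libraries and 10044 to 12241 in TNIP2 Pulldown, and its part in the results below was not tested. Replicate 3 stood apart in both TNIP2 groups, with a root mean square log2 distance from the other libraries of its group of 0.655 in Input (0.362 and 0.423 for the others) and 0.678 in Pulldown (0.442 and 0.482). For some members and comparisons, results are therefore also given without both libraries.

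Short stretches of promoter are shown first, because letters of elements known from stress-responsive promoters can be read in some of them. RefSeq sequence (GRCh38.p14) from 250 bases before to 50 after a start was at hand for all 9 genes, in 15 windows, and 3 motifs were searched on both strands. TGATGNAA, the composite element that ATF4 dimers bind, lay in the windows of ASNS and CHAC1 and in 3.62% of all 35116 windows. The endoplasmic reticulum stress element, CCAAT and CCACG with 9 bases between them, lay in that of XBP1 and in 0.0769% of all, and TGACGTCA, the cyclic AMP response element, in that of PPP1R15A and in 1.85% of all. Each of these windows held 1 of the 3 motifs, so none overlapped another. Capitals mark the motif in the sequences that follow, each with 40 bases on either side and read in the direction of transcription. A match describes these letters and is not a measured binding site.
ASNS (chr7:97872429-97872516, minus strand, motif 68 to 61 bases before the start): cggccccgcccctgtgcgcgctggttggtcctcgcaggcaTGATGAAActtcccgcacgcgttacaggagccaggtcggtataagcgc
CHAC1 (chr15:40953222-40953309, plus strand, match on the opposite strand, 209 to 202 bases before the start): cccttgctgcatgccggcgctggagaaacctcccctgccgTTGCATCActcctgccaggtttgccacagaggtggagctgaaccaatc
XBP1 (chr22:28800570-28800661, minus strand, motif 52 to 34 bases before the start): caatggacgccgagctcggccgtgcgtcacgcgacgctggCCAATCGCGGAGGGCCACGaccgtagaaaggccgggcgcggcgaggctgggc
PPP1R15A (chr19:48872323-48872410, plus strand, motif 58 to 51 bases before the start): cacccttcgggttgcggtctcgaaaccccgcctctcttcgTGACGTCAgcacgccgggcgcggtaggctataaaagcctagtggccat

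The 9 transcripts went apart in the purified TNIP2 fragment. Relative to its own extract, XBP1 and ATF4 were lower and DDIT3, DDIT4 and PPP1R15A were higher, while TRIB3, ASNS, CHAC1 and SESN2 did not pass the test. In limma, fitted over all 14627 genes with an adjusted p under 0.05 as the threshold, 3 of 9 members were thus higher and 2 lower. Of all genes tested, 58.1% were called in this comparison, 29.8% higher and 28.3% lower, so 5 calls among 9 members are near the background. The members' median log2 fold change was -0.26, beside 0.01 over all genes tested. Without both TNIP2 libraries numbered 3, 3 members were higher and 3 lower, where 4817 of all 14627 genes were higher and 4541 lower. For the tag alone, 0 of 9 members were called between Pulldown and Input, where 0.137% of all genes were.

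**Figure D1:**
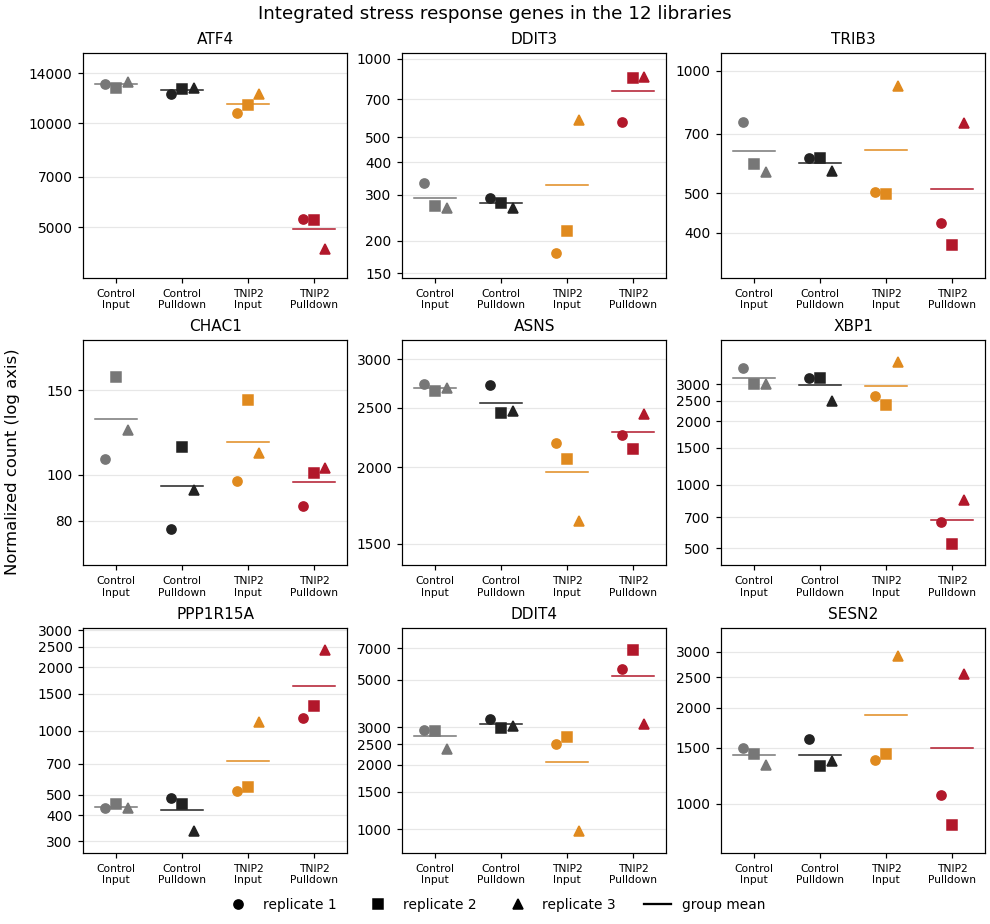
Normalized counts (log axes, scaled separately for each gene) of the 9 genes in the 12 libraries. Each point is 1 library, the symbol gives the replicate number, and the line is the mean of 3 libraries. The 3 TNIP2 Pulldown points lie below all other libraries for ATF4 and XBP1 and above all others for PPP1R15A. Replicate 3 of TNIP2 Input and of TNIP2 Pulldown lies above the other 2 for TRIB3, PPP1R15A, SESN2, XBP1 and, narrowly in TNIP2 Pulldown, DDIT3, and below them for DDIT4.

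Among the transcription factors, ATF4, the master regulator of the response, was the most abundant member by length in all extracts and was depleted in the purified fragment. Control Input libraries held 13045, 12707 and 13184 normalized counts of ATF4, Control Pulldown libraries 12172, 12596 and 12703, TNIP2 Input libraries 10730, 11316 and 12158 and TNIP2 Pulldown libraries 5272, 5251 and 4330. The 3 TNIP2 Pulldown libraries lay below the other 9 with a wide gap. The mean fell from 11401 ± 718 in TNIP2 Input to 4951 ± 538 in TNIP2 Pulldown (SD, n = 3), a log2 change of -1.21 (SE 0.13, adjusted p = 3.0e-06). Purified material held 0.491, 0.464 and 0.356 of the extract's value in pairs of the same number, against 0.933, 0.991 and 0.964 with the tag alone. Against Control Pulldown the log2 fold change was -1.34 (SE 0.13, adjusted p = 1.0e-06). Quantile normalization made the depletion relative to extract larger, at -1.96. ATF4 has 4 pseudogenes by symbol, and how reads shared with them were counted is not given in the sources used here.

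XBP1, the transcription factor of the IRE1 arm, was depleted further. Normalized counts of XBP1 were 3581, 3010 and 3000 across Control Input libraries and 3196, 3216 and 2498 across Control Pulldown libraries, and they were 2625, 2393 and 3807 across TNIP2 Input libraries and 662, 526 and 843 across TNIP2 Pulldown libraries. No TNIP2 Pulldown library came near the other groups. The mean fell from 2942 ± 758 to 677 ± 159 (SD, n = 3), and the log2 fold change was -2.11 (SE 0.20, adjusted p = 7.7e-07). The same-numbered ratios of Pulldown over Input were 0.252, 0.220 and 0.221. The tag alone gave ratios of 0.892, 1.07 and 0.833. Against Control Pulldown the log2 fold change was -2.15 (SE 0.20, adjusted p = 6.0e-07). Reads of the spliced and unspliced forms of XBP1 are not separated in gene-level values.

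DDIT3, which encodes CHOP, the transcription factor that links prolonged stress to cell death, went the other way. For DDIT3, extracts had 333, 273 and 267 normalized counts with the tag alone and 179, 218 and 582 with the TNIP2 fragment, and purified material had 292, 279 and 268 with the tag alone and 574, 843 and 848 with the TNIP2 fragment. TNIP2 Pulldown lay above both Control groups, but TNIP2 Input 3, at 582, overlapped it. The mean was 326 ± 222 in TNIP2 Input and 755 ± 157 in TNIP2 Pulldown (SD, n = 3), with a log2 change of 1.39 (SE 0.32, adjusted p = 0.0019). Same-numbered ratios were 3.21, 3.87 and 1.46, and without both libraries numbered 3 the log2 fold change was 1.81 (adjusted p = 1.4e-06). Against Control Pulldown it was 1.41 (SE 0.32, adjusted p = 0.0017). Centring on ribosomal protein genes, which moved the median of all genes from 0.01 to -0.47, left 0.92 relative to extract and ended the call (adjusted p = 0.059, 1.4e-06 to 0.059 over all alternatives). DDIT3 overlaps MARS1 (MARS in the tables), a methionyl-tRNA synthetase gene, and the strand setting of the counting is not given in the sources used here, so its value is uncertain. MARS itself had 2617 to 4095 normalized counts in the fragment's extract and 2231 to 3755 after purification, a log2 change of -0.20 (SE 0.21, adjusted p = 0.42).

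PPP1R15A, or GADD34, directs protein phosphatase 1 to eIF2 and so closes the response. Control Input libraries held 433, 450 and 431 normalized counts of PPP1R15A, Control Pulldown libraries 484, 453 and 336, TNIP2 Input libraries 521, 544 and 1105 and TNIP2 Pulldown libraries 1155, 1319 and 2419. All TNIP2 Pulldown libraries were above all others, narrowly so against TNIP2 Input 3, and TNIP2 Input was above both Control groups in every library. The mean rose from 723 ± 331 in TNIP2 Input to 1631 ± 687 in TNIP2 Pulldown (SD, n = 3), a log2 change of 1.18 (SE 0.29, adjusted p = 0.0029). The wide spread within both groups came with replicate 3, and same-numbered ratios were close to each other at 2.22, 2.42 and 2.19. The tag alone gave 1.12, 1.01 and 0.780. Against Control Pulldown the log2 fold change was 1.88 (SE 0.29, adjusted p = 6.5e-05). Centring on ribosomal protein genes ended the call relative to extract (log2 fold change 0.71, adjusted p = 0.13, 7.9e-06 to 0.13 over all alternatives) but not that against Control Pulldown.

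TRIB3, a pseudokinase induced by ATF4 and CHOP that restrains ATF4 activity, did not pass the test. Normalized counts of TRIB3 were 747, 590 and 564 across Control Input libraries and 610, 610 and 566 across Control Pulldown libraries, and they were 504, 497 and 920 across TNIP2 Input libraries and 422, 373 and 744 across TNIP2 Pulldown libraries. The TNIP2 groups overlapped, and replicate 3 was the highest library in each. The log2 fold change of TNIP2 Pulldown over Input was -0.32 (SE 0.26, adjusted p = 0.31, 95% interval -0.89 to 0.24), although Pulldown was below Input in all 3 same-numbered pairs, with ratios of 0.837, 0.751 and 0.809. With each extract as a block, which pairs the TNIP2 libraries by number, TRIB3 was called lower (adjusted p = 0.040), as it was without TNIP2 Pulldown replicate 3 (log2 fold change -0.63, adjusted p = 0.031); adjusted p ran from 0.031 to 0.92 over all alternatives. The tag alone gave ratios of 0.817, 1.03 and 1.00. Against Control Pulldown the log2 fold change was -0.28 (SE 0.26, adjusted p = 0.37), and -0.58 (adjusted p = 0.0015, 0.0015 to 0.81 over all alternatives) without both TNIP2 libraries numbered 3.

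Of the genes for amino acid and glutathione metabolism, ASNS makes asparagine and is a classical ATF4 target. For ASNS, extracts had 2731, 2660 and 2695 normalized counts with the tag alone and 2190, 2061 and 1630 with the TNIP2 fragment, and purified material had 2726, 2453 and 2470 with the tag alone and 2261, 2139 and 2445 with the TNIP2 fragment. The TNIP2 libraries, in both fractions, lay below the Control libraries, and the TNIP2 fractions overlapped. TNIP2 Pulldown over Input gave a log2 change of 0.23 (SE 0.14, adjusted p = 0.18, 95% interval -0.07 to 0.53), and the direction turned under quantile normalization (-0.25) and centring on ribosomal protein genes (-0.24). Same-numbered ratios were 1.03, 1.04 and 1.50. Against Control Pulldown ASNS had -0.16 (SE 0.14, adjusted p = 0.34). It was called lower there under quantile normalization (-0.65, adjusted p = 0.0017) and centring on ribosomal protein genes (-0.50, adjusted p = 0.040). Over all alternatives that adjusted p ran from 0.0017 to 0.59. ASNS has 5 pseudogenes by symbol and overlaps other annotated genes, so reads may have been split.

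CHAC1, an enzyme that degrades glutathione and is induced through ATF4 and CHOP, was the least abundant member. Control Input libraries held 108, 160 and 124 normalized counts of CHAC1, Control Pulldown libraries 77, 114 and 93, TNIP2 Input libraries 97, 143 and 111 and TNIP2 Pulldown libraries 86, 101 and 103. The groups overlapped in each of the 4 comparisons. Pulldown over Input gave a log2 change of -0.26 (SE 0.22, adjusted p = 0.33) for the TNIP2 fragment, with a 95% interval of -0.73 to 0.22. With the tag alone it was -0.46 (SE 0.22, unadjusted p = 0.057, adjusted p = 1.0), and all 6 same-numbered ratios of both constructs were below 1, from 0.706 to 0.928. A difference between TNIP2 and Control Pulldown was not detectable (log2 fold change 0.04, 95% interval -0.43 to 0.52). Centring on ribosomal protein genes gave a call relative to extract (-0.73, adjusted p = 0.034, 0.034 to 0.74 over all alternatives).

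DDIT4 and SESN2 both restrain the growth kinase mTORC1, DDIT4 (REDD1) through the TSC complex and SESN2 as a leucine sensor. Normalized counts of DDIT4 were 2906, 2874 and 2381 across Control Input libraries and 3291, 2974 and 3028 across Control Pulldown libraries, and they were 2498, 2694 and 984 across TNIP2 Input libraries and 5621, 6868 and 3108 across TNIP2 Pulldown libraries. TNIP2 Pulldown lay above both Input groups, while its replicate 3, at 3108, fell within Control Pulldown. The mean rose from 2059 ± 936 in TNIP2 Input to 5199 ± 1915 in TNIP2 Pulldown (SD, n = 3), a log2 change of 1.39 (SE 0.33, adjusted p = 0.0021). Same-numbered ratios were 2.25, 2.55 and 3.16, and 1.13, 1.03 and 1.27 with the tag alone. Against Control Pulldown DDIT4 was at 0.67 (SE 0.33, adjusted p = 0.092), and it was called higher there when TNIP2 Pulldown 3 or TNIP2 Input 3 was left out (1.01 and 0.67, adjusted p = 0.014 and 0.018), with the replicate number as a block (adjusted p = 0.023) and in a fit on only the groups compared (adjusted p = 0.049). With single libraries left out that adjusted p ran from 0.014 to 0.32, and over all alternatives from 6.5e-06 to 0.96. The highest value thus came from a change in processing and not from leaving out a library. Under quantile normalization the call relative to extract ended (log2 fold change 0.78, adjusted p = 0.05028, 1.8e-06 to 0.05028 over all alternatives).

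For SESN2, extracts had 1493, 1438 and 1325 normalized counts with the tag alone and 1375, 1430 and 2915 with the TNIP2 fragment, and purified material had 1592, 1312 and 1366 with the tag alone and 1067, 857 and 2559 with the TNIP2 fragment. Replicate 3 of both TNIP2 groups gave the 2 highest values of the 12 libraries, and the groups overlapped. TNIP2 Pulldown over Input gave a log2 change of -0.43 (SE 0.34, adjusted p = 0.29, 95% interval -1.15 to 0.29), with Pulldown below Input in 3 of 3 pairs (ratios 0.776, 0.599 and 0.878). SESN2 was called lower with each extract as a block (adjusted p = 0.013), without TNIP2 Pulldown replicate 3 (-0.90, adjusted p = 0.0075) and without both libraries numbered 3 (-0.55, adjusted p = 0.0030), with 0.0030 to 0.85 over all alternatives. Against Control Pulldown it had -0.10 (SE 0.34, adjusted p = 0.83), and -0.57 (adjusted p = 0.0011, 0.0011 to 0.98 over all alternatives) without both libraries numbered 3. With the extract as a block, members called in TNIP2 Pulldown over Input thus numbered 3 higher and 4 lower, where the same fit called 65.7% of all genes (33.8% higher, 31.9% lower).

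**Figure D2:**
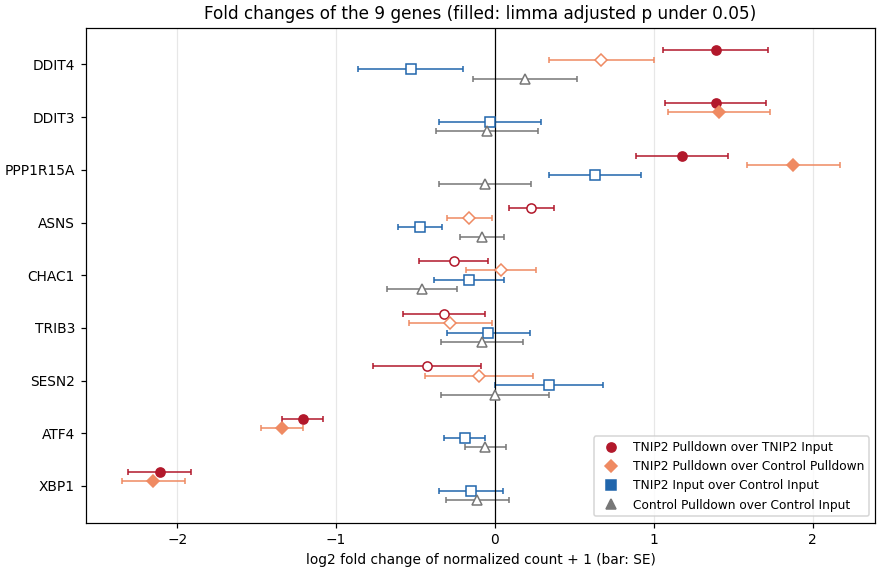
log2 fold changes of normalized count + 1 (bars, SE) of the 9 genes in 4 comparisons, with 3 libraries a group; filled symbols have a limma adjusted p under 0.05. XBP1 and ATF4 lie at -2.11 and -1.21 and DDIT3, DDIT4 and PPP1R15A at 1.39, 1.39 and 1.18 in TNIP2 Pulldown over TNIP2 Input, and no symbol is filled in TNIP2 Input over Control Input or Control Pulldown over Control Input.

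Purified RNA was also compared between the constructs, TNIP2 Pulldown against Control Pulldown, which shares the TNIP2 Pulldown libraries with the comparison above. PPP1R15A and DDIT3 were higher with the TNIP2 fragment and XBP1 and ATF4 were lower, 4 of 9 members in all, where 59.4% of all genes were called (30.6% higher, 28.7% lower). Libraries did not overlap for these 4 and for ASNS, 5 of 9, beside 61.0% of all genes tested. In the comparison with extract, 4 of 9 did not overlap, beside 57.5%. Without both libraries numbered 3, 3 members were higher and 4 lower, where 68.0% of all genes were called (35.2% higher, 32.8% lower).

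In Control Pulldown against Control Input 0 of 9 members were called in limma, where 0.137% of all genes were called, 20 genes and all of them lower. None of the 9 members had an unadjusted p under 0.05, while 342 of all genes did. A limma fit on only the groups compared gave 1019 such genes. The fit over all 4 groups is thus the stricter one here, and a missing call does not show equality. The members' log2 fold changes ran from -0.46 for CHAC1 to 0.19 for DDIT4, each with an adjusted p of 1.0. Libraries of ATF4 and DDIT4 did not overlap, 2 of 9 members beside 13.0% of all genes, although those of ATF4 came within a few counts of each other (12703 against 12707).

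TNIP2 Input against Control Input asked whether the extracts already differed, and 0 of 9 members were called in limma. Over all genes 0.00684% were called, which is TNIP2 alone, and 104 had an unadjusted p under 0.05, against 325 in a fit on only the groups compared. Of the members, 2 were among those 104. ASNS was at -0.47 (SE 0.14, unadjusted p = 0.0048, adjusted p = 1.0) and lower in 3 of 3 TNIP2 Input libraries, and PPP1R15A was at 0.63 (SE 0.29, unadjusted p = 0.048, adjusted p = 1.0) and higher in 3 of 3. ATF4 was also without overlap, at -0.19 (SE 0.13, adjusted p = 1.0, but 0.06 with centring on ribosomal protein genes), so that 3 of 9 members did not overlap, beside 8.94% of all genes. Without both TNIP2 libraries numbered 3, PPP1R15A was at 0.28 and ASNS at -0.34. DDIT4 and SESN2, at -0.53 and 0.34 with all libraries, were then at -0.06 and -0.02.

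The difference of enrichments subtracts the tag's own change between Pulldown and Input from that of the TNIP2 fragment. It was called for the same 5 members as the comparison with extract, 3 higher and 2 lower, where 42.8% of all genes were called (22.6% higher, 20.2% lower). XBP1 was at -2.00 (SE 0.29, adjusted p = 8.6e-05) and ATF4 at -1.15 (SE 0.19, adjusted p = 2.6e-04), and both stayed called under all alternatives run. DDIT3 was at 1.44 (SE 0.46, adjusted p = 0.020), PPP1R15A at 1.25 (SE 0.41, adjusted p = 0.025) and DDIT4 at 1.20 (SE 0.47, adjusted p = 0.04994). Centring on ribosomal protein genes ended these 3 calls, at 0.86, 0.67 and 0.62 (adjusted p = 0.23, 0.35 and 0.22), and the call of DDIT3 also ended without TNIP2 Input replicate 1 (1.11, adjusted p = 0.053). SESN2, at -0.43 (adjusted p = 0.49), was called lower without TNIP2 Pulldown replicate 3 (-0.90, adjusted p = 0.042) and without both libraries numbered 3 (-0.55, adjusted p = 0.017; 0.017 to 0.90 under the alternatives run). For PPP1R15A the call ended under quantile normalization (adjusted p = 0.066) and when Control Pulldown 3, TNIP2 Input 1 or TNIP2 Input 2 was left out (adjusted p = 0.066, 0.065 and 0.060). That of DDIT4 lay at the threshold and ended under 15 alternatives. Of these, 9 each left out a single library (any of the 3 of Control Input, any of the 3 of Control Pulldown, TNIP2 Input 3, TNIP2 Pulldown 1 or TNIP2 Pulldown 2, adjusted p = 0.062 to 0.13). Adjusted p over all alternatives ran from 2.1e-05 to 0.23 for DDIT3 and from 1.6e-04 to 0.35 and 0.36 for PPP1R15A and DDIT4.

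Replicate 3 of the TNIP2 groups differed from replicates 1 and 2 in the members themselves, in the same direction in extract and purified material except for ATF4, ASNS and CHAC1. Over the mean of the other 2 libraries, TNIP2 Input 3 and TNIP2 Pulldown 3 held 2.08 and 2.66 times as much SESN2, 2.08 and 1.96 times as much PPP1R15A, 1.84 and 1.87 times as much TRIB3 and 1.52 and 1.42 times as much XBP1. DDIT4 was low in both, at 0.379 and 0.498. DDIT3 was at 2.93 in TNIP2 Input 3 and at 1.20 in TNIP2 Pulldown 3. The plasmid-borne TNIP2 transcript was at 3.10 and 3.17 in these libraries, and its part in the members' levels was not tested. Of the members, 5 were at least 1.5 times higher and 1 at least 1.5 times lower in TNIP2 Input 3, beside 14.7% and 17.7% of all genes tested. In TNIP2 Pulldown 3 these were 3 and 1, beside 15.8% and 21.9%. In Control Input and Control Pulldown no library differed from the mean of the other 2 by 1.5 times for any member. Across all 14627 genes, which are not independent replicates, the log2 ratios of replicate 3 correlated between TNIP2 Input and TNIP2 Pulldown with r = 0.50.

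**Figure D3:**
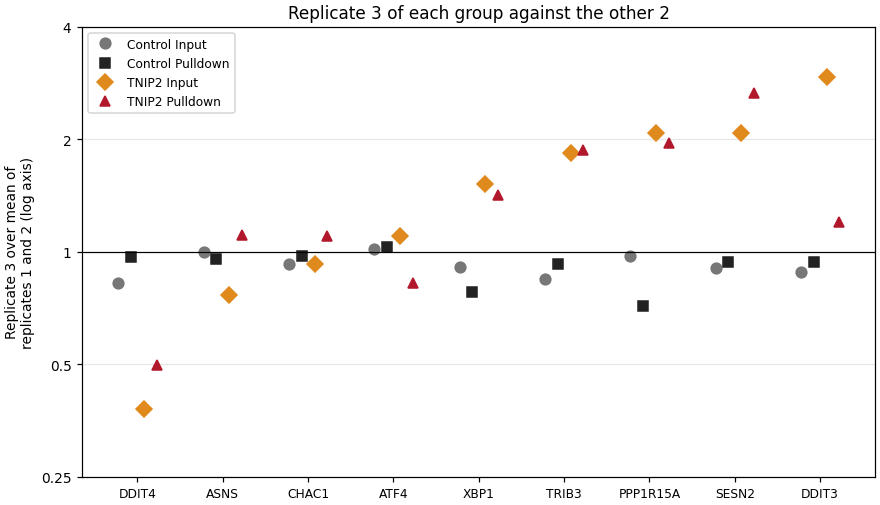
Normalized count of replicate 3 over the mean of replicates 1 and 2 (log axis) for the 9 genes in each of the 4 groups; 1 point is 1 library. TNIP2 Input and TNIP2 Pulldown lie at 2.08 and 2.66 for SESN2 and at 0.379 and 0.498 for DDIT4, while all Control points lie within 1.5 times of 1.

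Levels were compared between genes per length, as FPKM. In Control Input the order was ATF4 (563 ± 10.6, SD, n = 3), XBP1 (154 ± 16.1), DDIT4 (136 ± 14.7), ASNS (93.8 ± 1.25), SESN2 (35.3 ± 2.13), TRIB3 (22.7 ± 3.54), DDIT3 (21.7 ± 2.70), PPP1R15A (16.2 ± 0.389) and CHAC1 (7.36 ± 1.52). The neighbours XBP1 and DDIT4, and TRIB3 and DDIT3, overlapped. Control Pulldown kept this order except that DDIT4 (155 ± 8.50) and XBP1 (143 ± 19.7), which again overlapped, changed places. In TNIP2 Pulldown DDIT4 (261 ± 96.1) and ATF4 (215 ± 23.3) led and overlapped, followed by ASNS (79.4 ± 5.36), PPP1R15A (60.2 ± 25.4), DDIT3 (56.3 ± 11.7), SESN2 (37.2 ± 23.1) and XBP1 (32.7 ± 7.69), each overlapping the next. TRIB3 (18.4 ± 7.23), which XBP1 overlapped, and CHAC1 (5.44 ± 0.518) were lowest. In TNIP2 Input (ATF4 at 494 ± 31.1, XBP1 at 142 ± 36.6) neighbours from XBP1 down to TRIB3 overlapped.

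Across the 12 libraries, which share the 4 groups, ATF4 and XBP1 had the highest correlation of log2 values among members (r = 0.95, a description), followed by TRIB3 with SESN2 and DDIT3 with PPP1R15A (both 0.89). ATF4 and PPP1R15A were the most opposed pair (-0.88). Among 10536 genes with a mean of 100 or more, the patterns most like ATF4 were those of C17orf75, PUS7L and FUNDC2 (r = 0.998, 0.996 and 0.996), and those most like XBP1 were DYNC1LI1, ACOT8 and SKIV2L2 (0.997, 0.996 and 0.996). DDIT3 was closest to PIBF1, POLB and SLC4A1AP (0.979, 0.976 and 0.974), PPP1R15A to CDR2L, TRMT6 and AHSA1 (0.987, 0.983 and 0.982), and DDIT4 to LRBA, LHFPL2 and CEP170 (0.976, 0.972 and 0.966). SESN2 was closest to ATRIP, EDC4 and CDC25A (0.988, 0.981 and 0.980) and TRIB3 to WDR74, MAPK8IP2 and FBXW5 (0.980, 0.974 and 0.973). ASNS and CHAC1 had no close likeness, with GALNT6 (0.816) and RNF157 (0.765) nearest.

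The rest of the pathway was followed in 9 lists, for TNIP2 Pulldown over TNIP2 Input unless stated. Counts in every list stand beside 58.1% of all genes called in this comparison, 29.8% higher and 28.3% lower. With each extract as a block, 33.8% of all genes were higher and 31.9% lower. Among the upstream kinases, EIF2AK4 (GCN2, which senses scarce amino acids) and EIF2AK3 (PERK, which senses misfolded protein in the endoplasmic reticulum) were higher and EIF2AK2 (PKR, which senses double-stranded RNA) was lower, 3 of 4 called. EIF2AK4 had 869, 984 and 581 normalized counts in the fragment's extract and 4015, 4099 and 2313 after purification, without overlap, and 765 to 871 in both Control groups. Its log2 fold change was 2.09 (SE 0.22, adjusted p = 2.0e-06), and that of EIF2AK3 was 1.08 (SE 0.17, adjusted p = 1.0e-04). EIF2AK2 was at -0.70 (SE 0.23, adjusted p = 0.019), a call that ended when TNIP2 Input 1, TNIP2 Input 2 or TNIP2 Pulldown 3 was left out and in a fit on only the groups compared (adjusted p = 0.068, 0.084, 0.076 and 0.067, 3.5e-04 to 0.084 over all alternatives).

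Genes for the kinases' substrate, eIF2, and for its exchange factor, eIF2B, went both ways. Of these 8 genes, 2 were higher and 4 lower (median -0.60), beside 29.8% higher and 28.3% lower over all genes. EIF2S1, the alpha subunit, was lower, at -1.38 (limma adjusted p = 3.3e-04). Against Control Pulldown EIF2S1 was at -1.11 (adjusted p = 0.0017). EIF2S2, the beta subunit, had 3454, 3373 and 4346 normalized counts in the fragment's extract and 18595, 21490 and 19624 after purification, without overlap. It rose by 2.42 on the log2 scale (SE 0.15, adjusted p = 1.8e-08), while EIF2S3, the gamma subunit of the same complex, was at -1.24 (SE 0.20, adjusted p = 9.1e-05), and EIF2B1 at 1.22 (SE 0.18, adjusted p = 3.7e-05). Of 4 genes for the eIF2 phosphatase besides PPP1R15A, the catalytic subunit genes PPP1CB and PPP1CA fell by 1.14 and 0.99 (SE 0.13 and 0.17, adjusted p = 3.6e-06 and 1.7e-04), 0 were higher, and the list's median was -0.41. PPP1CC was at 0.51 (SE 0.24, adjusted p = 0.076) and was called higher with each extract as a block (adjusted p = 0.037, 0.0067 to 0.87 over all alternatives), as was its difference of enrichments (0.85, adjusted p = 0.052, and 0.022 with the block, 0.0058 to 0.66 over all alternatives).

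Among 7 relatives and partners of ATF4, 5 were higher and 1 lower (2 lower with each extract as a block), with a median of 1.34. Over all genes 29.8% were higher and 28.3% lower (31.9% lower with the block). CEBPB, a leucine zipper factor that pairs with CHOP, had 239, 190 and 161 normalized counts in the fragment's extract and 1043, 1250 and 623 after purification. These did not overlap, and the log2 fold change was 2.26 (SE 0.24, adjusted p = 2.0e-06). NFE2L2, the regulator of the antioxidant response, was at 1.41 (SE 0.15, adjusted p = 2.6e-06) and JUND at 1.01 (SE 0.19, adjusted p = 3.5e-04), which became 0.54 (adjusted p = 0.060, 1.4e-04 to 0.060 over all alternatives) with centring on ribosomal protein genes.

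Genes that ATF4 switches on for amino acid supply were called lower more often than higher. Of 12 genes for amino acid synthesis and one-carbon metabolism, 8 were lower and 1 higher (median -0.75), and of 10 amino acid transporter genes 7 were lower and 2 higher (median -0.85), beside 28.3% lower and 29.8% higher over all genes. PSPH, for the last step of serine synthesis, PYCR1, for proline synthesis, and PCK2, the mitochondrial phosphoenolpyruvate carboxykinase, were at -1.42, -1.47 and -1.40 (SE 0.16, 0.21 and 0.24, adjusted p = 3.3e-06, 2.7e-05 and 1.6e-04). The transporters SLC1A5, for glutamine, and SLC1A4, for alanine, serine and cysteine, were both at -0.96 (SE 0.17 and 0.18, adjusted p = 1.7e-04 and 3.3e-04). SLC38A2, another transporter of small neutral amino acids, stood against them with 4044, 3602 and 2214 normalized counts in the fragment's extract and 36545, 32389 and 12402 after purification. These groups did not overlap, replicate 3 was the lowest in each, and the log2 fold change was 2.94 (SE 0.32, adjusted p = 2.2e-06). Against Control Pulldown the synthesis list had 9 lower and 1 higher and the transporter list 7 lower and 1 higher. Of all genes, 28.7% were lower and 30.6% higher in that comparison.

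Of 20 symbols listed as other ATF4 or CHOP targets, 18 genes were tested, FGF21 was below the filter, and ERO1A has no row of that name beside its older symbol ERO1L. In this list 6 were higher and 4 lower, with a median of 0.09. KLHL24 was at 1.36 (SE 0.17, adjusted p = 8.0e-06), EIF4EBP1, a translation repressor controlled by mTORC1, at -1.28 (SE 0.21, adjusted p = 9.3e-05), and DDIT4L, the paralog of DDIT4, at -1.60 (SE 0.27, adjusted p = 1.6e-04). DDIT4L lay near the filter, with 41, 46 and 31 normalized counts in the fragment's extract and 14, 14 and 9 after purification. Those last 3 values rest on 15, 28 and 7 recovered reads. DDIT4 and DDIT4L were thus called in opposite directions, but DDIT4L is poorly measured, and the call of DDIT4 ended under quantile normalization.

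In the unfolded protein response, 5 of 6 sensors and proteases were tested (ERN2 was below the filter), and 1 was higher and 0 lower (1 lower with each extract as a block). The higher one was MBTPS1, the site-1 protease that cuts ATF6, with 1851, 1947 and 989 normalized counts in the fragment's extract and 7104, 10187 and 4242 after purification, without overlap, a log2 change of 2.14 (SE 0.31, adjusted p = 3.3e-05). ERN1, which encodes IRE1, was at 0.39 (SE 0.21, adjusted p = 0.13), called higher under quantile normalization (adjusted p = 0.035) and without TNIP2 Input 2 or TNIP2 Pulldown 3 (0.58 and 0.53, adjusted p = 0.038 and 0.048) but at -0.08 with centring on ribosomal protein genes. The adjusted p of ERN1 ran from 0.035 to 0.77 under the alternatives. ATF6 was at -0.34 (SE 0.19, adjusted p = 0.14) and was called lower under quantile normalization and centring on ribosomal protein genes (-0.62 and -0.81, adjusted p = 0.0057 and 0.0052). Of 18 targets of XBP1 and ATF6, 3 were higher (5 with each extract as a block) and 3 lower, with a median of -0.02. HSP90B1, the chaperone GRP94, had 8044, 6387 and 4818 normalized counts in the fragment's extract and 63781, 58923 and 41195 after purification, and 5695 to 8108 in both Control groups. TNIP2 Pulldown lay above all other libraries, at 3.10 (SE 0.21, adjusted p = 4.6e-08). SEC61B, of the translocation channel, was at 0.80 (SE 0.20, adjusted p = 0.0036), which became 0.33 (adjusted p = 0.17, 1.4e-05 to 0.17 over all alternatives) with centring on ribosomal protein genes, and EDEM2, of glycoprotein disposal, was at -0.64 (SE 0.18, adjusted p = 0.0083).

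**Figure D4:**
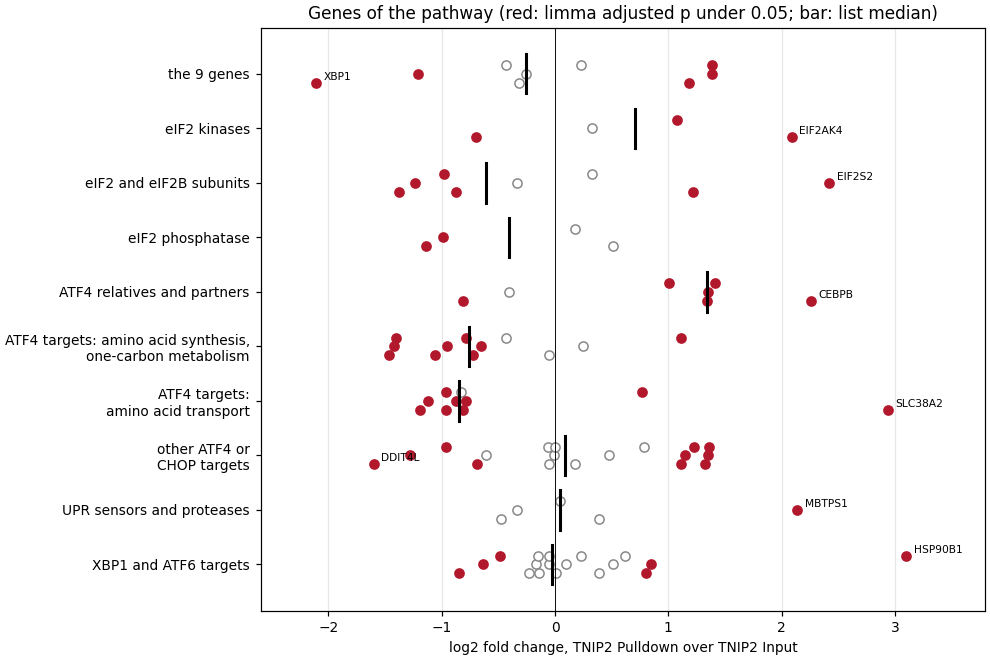
log2 fold changes of TNIP2 Pulldown over TNIP2 Input for every tested gene of the 9 members and of the 9 pathway lists; each point is 1 gene, red points have a limma adjusted p under 0.05, and the bar is the list's median. The medians run from -0.85 for amino acid transport to 1.34 for ATF4 relatives and partners, with SLC38A2 at 2.94 and HSP90B1 at 3.10 on the far right.

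With the tag alone, and in TNIP2 Input against Control Input, 0 genes of each of the 9 lists were called in limma. The lists overlap in what they were chosen for, and their genes share the 12 libraries. With 58.1% of all genes called in either direction, a count of calls in both directions together has to be read beside that share. Genes not called ran from 1 of 10 for amino acid transport to 4 of 5 for the unfolded protein response sensors and proteases. Counts by direction stand beside 29.8% higher and 28.3% lower over all genes, and no list was tested as a set.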

How the data were processed

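RNA depleted of ribosomal RNA was sequenced, per the labels' protocols. The authors deposited normalized counts, treated here as a score, and FPKM values by gene symbol. TopHat2 2.0.14, DESeq2 1.6.3 and hg19 come from the submitters' processing notes; counter and strand setting were not given in the sources used here. Letters C, I and P in column names follow from the labels, which leaves F for the TNIP2 fragment. Whole reads were recovered from steps in the FPKM values (100.0% of the low values checked came out whole within 0.1 reads) and give the depths; voom on these reads called 4566 genes higher and 4305 lower in TNIP2 Pulldown over Input; 1 read was worth 0.5103 to 2.8632 normalized counts.

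Values were fitted as log2(normalized count + 1), which understates changes of low genes, with group means in limma 3.58.1 under R 4.3.3 (lmFit, eBayes with trend). The code was run on simulated counts with few changed genes and no outlying library. These data differ from that, so the simulation does not test the fit under their conditions. Two-sided p-values were adjusted by Benjamini-Hochberg across 14627 genes. FPKM used a pseudocount of 0.1. Same-numbered TNIP2 Input and Pulldown libraries deviated together (correlations 0.369, 0.458 and 0.497), so extract-block values are given where they change a call. Unlike numbers gave 0.274 (TNIP2 Input 1 with Pulldown 2) and 0.107 (Input 2 with Pulldown 1), and -0.447 to -0.273 where a replicate 3 was involved. The same-numbered Control pairs reached 0.077 at most. The block takes equal numbers as 1 extract in both constructs, which the sample titles do not state. Members, lists, motifs and named genes (the 3 smallest p per list, the 3 genes most like each member) were chosen with earlier results of these data known.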

Additional observations from a re-analysis of the deposited data

Results flagged for a closer look

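The change between Pulldown and Input differed between the TNIP2 fragment and the tag alone, by the test of the difference of enrichments (limma, all genes), for 5 of the 9 genes. The difference was -2.00 for XBP1, -1.15 for ATF4, 1.44 for DDIT3, 1.25 for PPP1R15A and 1.20 for DDIT4 on the log2 scale. It also passed for EIF2AK4 (2.12), EIF2AK3 (1.16), EIF2AK2 (-0.86), EIF2S2 (2.49), EIF2B1 (1.34) and EIF2S3 (-1.31). The phosphatase subunit genes PPP1CB and PPP1CA had -1.15 and -0.81. CEBPB, NFE2L2 and JUND had 2.41, 1.34 and 1.06. Among amino acid genes, PSPH, PYCR1 and PCK2 had -1.31, -1.47 and -1.54, SLC38A2 had 2.88, and SLC1A5 and SLC1A4 had -0.90 and -0.86. KLHL24, EIF4EBP1 and DDIT4L had 1.10, -1.50 and -1.68, and MBTPS1, HSP90B1 and SEC61B had 2.18, 3.01 and 0.96. Over all genes, 42.8% passed this test. The pathway genes from EIF2AK4 on were named for their small p in TNIP2 Pulldown over TNIP2 Input. That change is a part of this difference, so their passing is no separate evidence. They are also not all that passed in the lists. EIF2S1 (-1.24, adjusted p = 0.013), CEBPD (1.79, adjusted p = 0.0018) and NUPR1 (-1.81, adjusted p = 0.0011) are among the others. Of the pathway genes, EIF2AK2 lay at the threshold (adjusted p = 0.049, 0.0018 to 0.12 over all alternatives), and its call ended under 13 alternatives, 9 of which left out a single library (Control Input 1 or 2, any of the 3 of Control Pulldown, TNIP2 Input 1 or 2, TNIP2 Pulldown 1 or 3). With centring on ribosomal protein genes the calls also ended for EIF2AK3 (0.58, adjusted p = 0.15), EIF2B1 (0.76, adjusted p = 0.10), NFE2L2 (0.76, adjusted p = 0.053), JUND (0.48, adjusted p = 0.26), KLHL24 (0.52, adjusted p = 0.076) and SEC61B (0.38, adjusted p = 0.29), and for SEC61B under quantile normalization as well (0.63, adjusted p = 0.062). Such losses for the 9 genes stand with their values above.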

How the results depend on the processing

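Over 25 alternatives, 1107 values of the 9 genes were recomputed, of which 1025 kept their direction and their side of the threshold, 25 lost a call, 18 gained one and 39 changed sign; 0 of those that changed sign were called on either side. In TNIP2 Pulldown over Input the number of members called higher, 3, was 1 with centring on ribosomal protein genes, and the number lower, 2, was 4 with the extract block and ran from 2 to 4 with single libraries left out. Against Control Pulldown the number lower, 2, was 4 without both TNIP2 libraries numbered 3. In the difference of enrichments the number higher, 3, was 1 under quantile normalization, 0 with centring on ribosomal protein genes and 1 to 3 with single libraries left out. The extract block and the removal of both libraries numbered 3 were chosen after seeing the data. The planned replicate block across constructs gave 3 further calls among named genes, DDIT4 in TNIP2 Pulldown over Control Pulldown (adjusted p = 0.023) and PPP1CC in TNIP2 Pulldown over Input and in the difference (adjusted p = 0.043 and 0.027), and ended none; numbers did not pair the constructs. Under quantile normalization ATF4 was at 0.05 in Control Pulldown over Input, ASNS at -0.25 in TNIP2 Pulldown over Input and -0.20 in the difference, and PPP1CC at -0.13 in TNIP2 Pulldown over Input. With centring on ribosomal protein genes, Control Pulldown over Input gave 0.05 for ATF4, 0.06 for DDIT3, 0.03 for TRIB3, 0.03 for ASNS and 0.05 for PPP1R15A, and TNIP2 Input over Control Input gave 0.06 for ATF4, 0.21 for DDIT3 and TRIB3, 0.09 for CHAC1 and 0.10 for XBP1. The same centring gave -0.29 for CHAC1 against Control Pulldown, -0.24 for ASNS and -0.08 for ERN1 in TNIP2 Pulldown over Input, and -0.38 for CHAC1, -0.27 for ASNS and -0.02 for ERN1 in the difference. CHAC1 against Control Pulldown was at -0.0046 in voom on recovered reads and at -0.0041 without both libraries numbered 3. SESN2 was at -0.0021 in voom in Control Pulldown over Input and at -0.02 in TNIP2 Input over Control Input without both libraries numbered 3. With single libraries left out, values ran in Control Pulldown over Input from -0.11 to 0.05 for DDIT3, -0.16 to 0.04 for TRIB3, -0.17 to 0.0091 for XBP1, -0.17 to 0.10 for PPP1R15A and -0.08 to 0.06 for SESN2. In TNIP2 Input over Control Input they ran from -0.55 to 0.30 for DDIT3, -0.33 to 0.11 for TRIB3 and -0.02 to 0.53 for SESN2. Against Control Pulldown they ran from -0.09 to 0.19 for CHAC1 and -0.57 to 0.22 for SESN2, and in the difference from -0.55 to 0.05 for TRIB3. The cause of these changes was not tested. Among the 9 genes, depth limits CHAC1 most, above all in Control Pulldown.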
